A study of Mus musculus with 4 samples.

Results

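The genes described here encode 9 secreted proteins of the extracellular matrix that are tied to tissue fibrosis: fibronectin (Fn1), thrombospondin 1 (Thbs1), SPARC (Sparc), periostin (Postn), latent TGF-beta binding protein 1 (Ltbp1), fibrillin 1 (Fbn1), lysyl oxidase (Lox), lysyl oxidase like 2 (Loxl2) and biglycan (Bgn). Open chromatin at these genes was compared between 2 libraries of quiescent satellite cells from mdx mice and 2 libraries of the same cell type from wild type mice. Satellite cells are the resident stem cells of skeletal muscle, and mdx mice, which lack dystrophin, are a model of Duchenne muscular dystrophy. The cells were purified by flow sorting, and the genotype is a germline one that every cell of the animal carries. Sources used here do not give the age, sex, strain background, muscle or sorting markers. The design text speaks of 3 mice for each condition, and nothing ties a library to an animal, so p-values here measure how far these 4 libraries spread and may reflect technical variation.

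The assay was ATAC-seq, in which the transposase Tn5 cuts open DNA and tags the cut ends, so that reads gather at accessible sites. The deposited table lists 35019 accessible regions with a median width of 342 bp, each with 1 scaled and rounded read number per library, and it links some regions to a gene. Regions linked by name to a member gene were taken, plus regions with no linked gene whose centre lay within 100 kb of a member gene on the same chromosome. This gave 48 regions, 12 linked and 36 unlinked, from 7 of the 9 genes: 16 at Ltbp1, 9 each at Thbs1 and Bgn, 6 at Sparc, 3 each at Fn1 and Lox, and 2 at Postn. Fbn1 and Loxl2 have 0 linked regions and no gene span in the table, so they are outside these 48 and are described apart. The regions were chosen by gene name and position and by no library value of their own, but the genes were proposed with the accessibility differences of these same 4 libraries known, so their values are given as a description. Unlinked regions are near a gene by position only, and other genes may lie nearer.

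Matricellular proteins such as thrombospondin 1, SPARC and periostin sit in the matrix and act on cells rather than carrying load. Fibronectin forms fibrils that bind integrins and on which other matrix proteins assemble, and fibrillin microfibrils hold latent TGF-beta through the latent TGF-beta binding proteins. Lysyl oxidases crosslink collagen and elastin, and biglycan is a small proteoglycan that binds collagen. In dystrophic muscle these proteins build up as fibrosis, for which fibro-adipogenic progenitors are a main source, while fibronectin and other matrix proteins are also part of the satellite cell niche.

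RefSeq promoter windows run from 250 bases before to 50 after an annotated start and are given 5′ to 3′ on the gene's strand (build GRCm38.p6). Windows matched 5 of the 9 genes, and those of Ltbp1, Sparc and Postn are printed because these genes have an annotated start away from the one in the deposited table, which bears on where their accessible regions lie. Capitals mark exact matches, searched on both strands, to the letters TGACTCA for AP-1 factors, CAGAC for SMAD proteins, GGAATG for TEAD factors, TATAAA for the TATA box and CCAAT for the CCAAT box. No 2 capitalised matches overlap.
Postn upstream start, chr3:54359017-54359316, plus strand: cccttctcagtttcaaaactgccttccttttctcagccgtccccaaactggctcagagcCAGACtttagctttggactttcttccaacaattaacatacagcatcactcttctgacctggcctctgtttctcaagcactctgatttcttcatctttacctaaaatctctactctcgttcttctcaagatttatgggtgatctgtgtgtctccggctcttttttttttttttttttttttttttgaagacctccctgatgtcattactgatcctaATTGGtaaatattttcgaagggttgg
Postn downstream start, chr3:54360857-54361156, plus strand: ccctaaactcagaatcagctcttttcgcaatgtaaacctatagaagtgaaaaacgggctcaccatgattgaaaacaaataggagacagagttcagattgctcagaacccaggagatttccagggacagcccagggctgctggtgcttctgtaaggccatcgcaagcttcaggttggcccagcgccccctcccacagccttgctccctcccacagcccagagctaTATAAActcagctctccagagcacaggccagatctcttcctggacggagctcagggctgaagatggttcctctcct
Sparc, chr11:55420031-55420330, minus strand: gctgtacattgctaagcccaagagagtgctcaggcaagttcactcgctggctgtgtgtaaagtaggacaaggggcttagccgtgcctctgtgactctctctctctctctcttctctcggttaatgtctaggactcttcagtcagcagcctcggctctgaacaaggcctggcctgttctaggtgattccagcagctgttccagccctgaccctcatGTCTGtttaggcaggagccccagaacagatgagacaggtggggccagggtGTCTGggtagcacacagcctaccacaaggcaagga
Ltbp1 upstream start, chr17:75005279-75005578, plus strand: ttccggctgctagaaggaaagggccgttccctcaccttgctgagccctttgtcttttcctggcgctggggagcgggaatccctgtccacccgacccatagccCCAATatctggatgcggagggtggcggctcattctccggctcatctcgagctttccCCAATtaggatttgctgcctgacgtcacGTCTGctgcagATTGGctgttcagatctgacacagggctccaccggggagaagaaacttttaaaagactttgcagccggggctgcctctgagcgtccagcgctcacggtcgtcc
Ltbp1 downstream start, chr17:75178531-75178830, plus strand: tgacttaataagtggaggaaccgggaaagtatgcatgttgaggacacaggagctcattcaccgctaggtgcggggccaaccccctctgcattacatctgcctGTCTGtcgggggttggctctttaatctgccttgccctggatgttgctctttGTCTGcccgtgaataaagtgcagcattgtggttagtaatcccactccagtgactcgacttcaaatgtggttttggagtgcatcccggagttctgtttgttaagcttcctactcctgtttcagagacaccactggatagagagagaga

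The pairs of starts differ in these letters. The Ltbp1 upstream window holds 3 CCAAT matches and 1 SMAD match, whereas the downstream window holds 2 SMAD matches and 0 CCAAT matches. The Postn downstream window has a TATA box match at position -26 from the start, and the upstream window has 0 TATA matches, with 1 SMAD and 1 CCAAT match. The Sparc window holds 2 SMAD matches. AP-1 and TEAD letters were found in 0 of these 5 windows. Over all 32851 RefSeq promoter windows, 5.20% held AP-1 letters, 49.6% SMAD, 14.7% TEAD, 13.6% TATA box and 37.4% CCAAT box letters, so the SMAD and CCAAT matches are common ones. A match describes the letters of the window and says nothing about binding.

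After the authors' scaling was undone, the listed regions held 3208479 and 3607633 reads in the mdx libraries, against 3693096 and 8165826 reads in the wild type libraries. The last number is an estimate, as the scaling of that library rounds more than 1 read number to the same value. Mitochondrial regions took 13.7 to 17.7% of those reads in mdx and 9.31 to 14.0% in wild type. Promoter regions, those within 1 kb of the start of their linked gene, took 52.8 to 57.2% of the nuclear reads in mdx libraries and 61.1 to 64.2% in wild type libraries, so promoter and distal regions are each read below against all regions of their own class. Of 14 satellite cell markers, 11 had a promoter region, with summed levels of 2070 to 2089 in mdx and 2323 to 2516 in wild type. Of 14 markers of fibro-adipogenic progenitors, 9 had one, summing to 448 to 470 in mdx and 303 to 327 in wild type, and Pdgfra, Ly6a, Lum, Pi16 and Smoc2 had 0 promoter regions. Of 6 myofibre markers, 2 had one, summing to 180 to 184 in mdx and 68 to 104 in wild type. Immune and Schwann cell markers had 0 promoter regions for 10 and 4 genes. Endothelial (1 of 8), smooth muscle and pericyte (4 of 7) and tenocyte (1 of 5) sums overlapped between the groups, at 131 to 152, 450 to 504 and 28 to 44 in mdx and 131 to 146, 501 to 503 and 40 to 73 in wild type. The satellite cell sum (lower in mdx) and the progenitor and myofibre sums (higher in mdx) thus differ with the genotype. Their part in the differences below was not tested. Of all tested promoter regions, 43.5% had both mdx libraries below both wild type libraries and 10.4% had them above. Their median log2 fold change (mdx minus wild type) was -0.25. The sums do not stand for each marker, as the log2 fold change was -0.16 at Pax7, -0.09 and 0.02 at Myf5, 0.02 at Dcn and 0.22 at Col1a1.

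Chromatin was more open in mdx cells at 1 region each near Postn and inside Ltbp1, by 3.02-fold and 8.12-fold, and no region of the set fell. A linked region just upstream of Postn was 2.25-fold higher in mdx but had an adjusted p of 0.0524. No promoter region, by the gene starts of the deposited table, passed, whether at Fn1, Thbs1, Ltbp1 or Lox. Regions centred -531 bp, 39.5 bp and -304 bp from RefSeq starts of Postn, Sparc and Ltbp1 count as distal here, and none of them passed. In all, 45 of the 48 regions passed the filter on low values (10 or more scaled reads in 2 or more libraries) and were tested with limma on log2(value + 1), with Benjamini-Hochberg adjustment over all 33161 tested regions, and 2 of the 45 (4.44%) rose at an adjusted p under 0.05, against 3.3% of all tested regions. None of the 45 fell (0 also by voom on the recovered reads, and 0 at an unadjusted p under 0.05), against 0.881% of all. Both calls are distal, 2 of 39 (5.13%) against 4.65% of all tested distal regions, so the share called is near the background. At an unadjusted p under 0.05, 10 of the 45 (22.2%) were higher, against 13.8% of all tested regions, and 0 were lower, against 9.15%; in either direction the shares were 22.2% and 23.0%. Of the 39 distal regions 9 (23.1%) were higher at that p, against 19.3% of all distal regions. Lower regions were mostly of the other class. Of the 11602 tested linked regions with a gene name, 10139 of them promoter regions, 17.5% were lower at that p. They also held 190 of the 292 regions that fell at an adjusted p under 0.05. The shares of 9.15% and 0.881% are thus not those to expect of a mostly distal set. A bulk measurement cannot tell a larger share of cells with an open site from more opening in each cell.

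The distal regions leaned toward mdx in level. Their median log2 fold change was 0.36 over 39 regions, against 0.19 over all tested distal regions, and 30 of 39 (76.9%) were above 0, against 61.7% of all. Both mdx libraries were above both wild type libraries at 16 of the 39 (41.0%), against 35.3% of all, and below them at 4 (10.3%), against 16.8% of all. Distal regions outside the gene bodies had a median of 0.57 (23 regions) and those inside them 0.23 (16 regions). All tested distal regions were not split in this way, so whether the contrast is particular to these genes was not tested. Of the 6 promoter regions 0 passed, against 2.42% of all tested promoters, 2 had both mdx libraries above both wild type libraries (10.4% of all) and 1 had them below (43.5% of all). These promoters had a median of -0.14, against -0.25 over all promoters, and this median turned to 0.11 when the promoter medians of the libraries were set equal. The median over the whole table was -0.01 as deposited, 0.23 under that scaling and -0.22 with distal medians set equal; these scalings shift all regions of a library together and so cannot change the distance of the set from its class. With the distal medians equal, 24 of the 39 distal regions were above 0, with a median of 0.14 against -0.02 over all tested distal regions. The level of the 39 was ordinary, with a median over regions of 41.0 scaled reads against 39.75 for all distal regions.

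**Figure D1:**
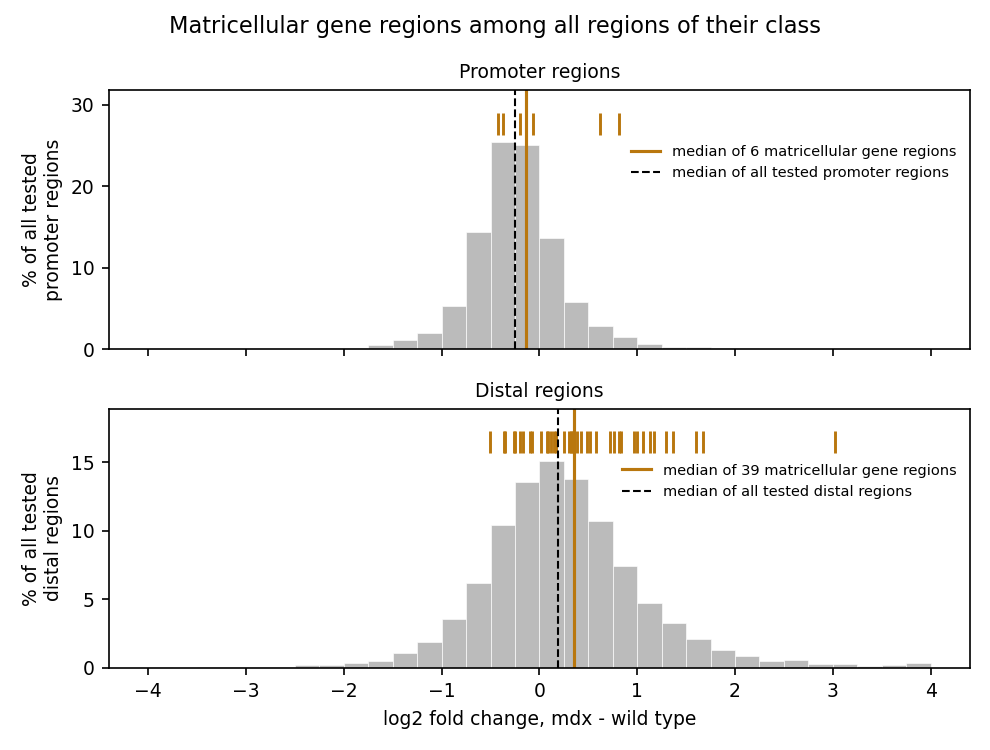
Histograms of the log2 fold change (mdx minus wild type) of all 11292 tested promoter regions and all 21869 tested distal regions as a percentage of each class, with values beyond 4 in size put in the end bins. Ticks mark the 6 promoter and 39 distal regions of the matricellular and fibrosis genes, and lines mark the medians, 0.36 for their distal regions against 0.19 for all distal regions.

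Postn encodes periostin, a matricellular protein made in healing and fibrotic tissue, and both of its regions were higher in mdx. At each, both mdx libraries lay above both wild type libraries, as at 35.3% of all tested distal regions. The region at chr3:54466007-54466515 (mm10), 105 kb from the deposited gene start and 75.2 kb past the gene's end, had 72 and 108 scaled reads in mdx cells, against 28 and 29 in wild type cells. Its log2 fold change of 1.60 (SE 0.35) had an adjusted p of 0.0287 by limma. The linked region, at chr3:54358553-54358919 and -2.37 kb from the deposited start, had 140 and 106 scaled reads in mdx cells, against 64 and 45 in wild type cells, with a log2 fold change of 1.17 (SE 0.31) at an adjusted p of 0.0524. It lies upstream of both windows printed above, ending 97 bp before the upstream window and 1937 bp before the downstream, TATA-bearing window, and 0 listed regions lie over either. This region passed under 8 of 16 alternatives, such as voom on the recovered reads (adjusted p = 0.0212) and scaling by nuclear totals (0.0296). The distant region failed without the filter on low values (adjusted p = 0.0591) and, as all calls of the table did, whenever 1 library was left out: its log2 fold change was then 1.31 to 1.89 with adjusted p of 0.288 to 0.670.

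**Figure D2:**
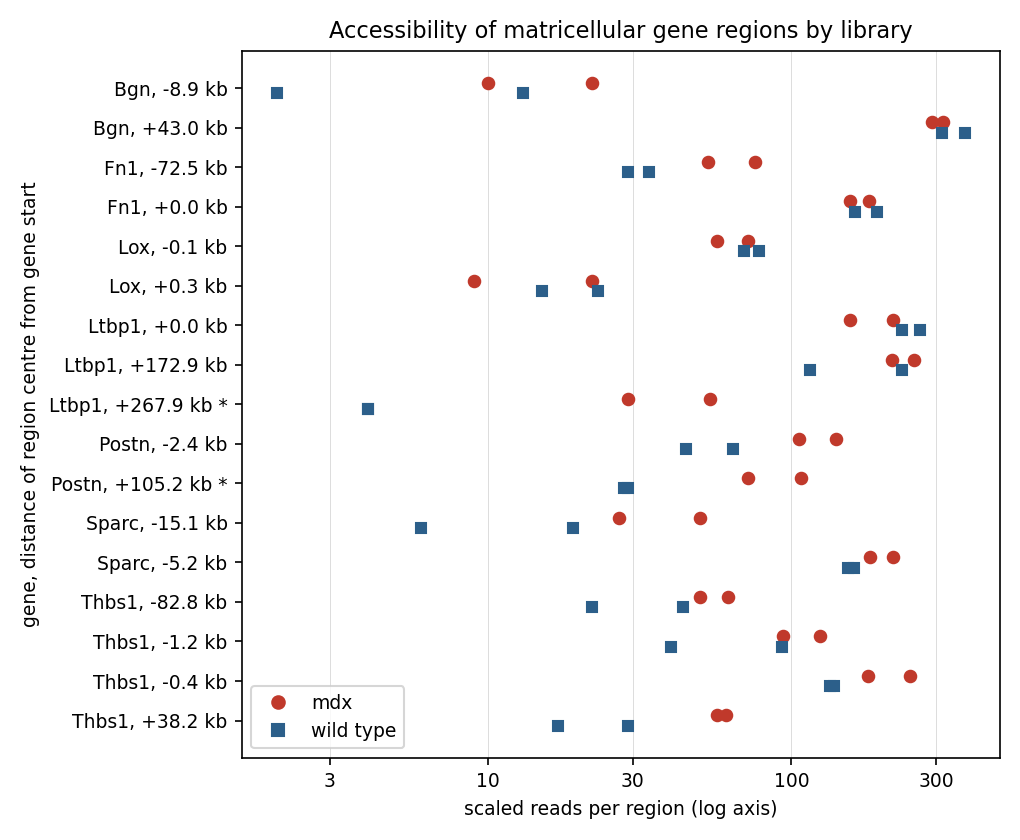
Scaled reads per library (log axis) at the regions chosen for full description, by gene and distance in kb from the gene start, with mdx and wild type libraries as points; asterisks mark an adjusted p under 0.05. The mdx points lie apart from the wild type points at the marked Postn region (72 and 108 in mdx, 28 and 29 in wild type) and at the marked Ltbp1 region (54 and 29 in mdx, 4 and 4 in wild type), and they mix at the Fn1 and Lox promoters.

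Fn1 encodes fibronectin, whose promoter values overlapped between the groups, while at 2 upstream regions both mdx libraries lay above both wild type libraries. The same held at 35.3% of all tested distal regions and at 10.4% of all tested promoter regions, so this contrast is not particular to Fn1. The promoter region, chr1:71652729-71653602, had 181 and 156 scaled reads in mdx cells, against 192 and 162 in wild type cells. The groups overlapped, with a log2 fold change of -0.07 (SE 0.23, adjusted p = 0.888) whose sign turned in 3 of 16 alternatives. Upstream, the region -72.5 kb from the start (chr1:71725558-71725853) had 76 and 53 scaled reads in mdx cells, against 34 and 29 in wild type cells, with a log2 fold change of 0.99 (SE 0.36) with an adjusted p of 0.131. A second one, -30.8 kb from the start, had 39 and 56 scaled reads in mdx cells, against 22 and 25 in wild type cells. Neither upstream region passed the test.

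Thbs1 encodes thrombospondin 1, which can release TGF-beta from its latent complex. At its promoter regions both mdx libraries lay above both wild type libraries, as at 10.4% of all tested promoter regions. Neither promoter region passed. The one centred -0.416 kb from the start (chr2:118111034-118111886) had 246 and 179 scaled reads in mdx cells, against 134 and 138 in wild type cells, with a log2 fold change of 0.62 (SE 0.24, adjusted p = 0.144). The one centred -1.20 kb from it (chr2:118110459-118110896) had 124 and 94 scaled reads in mdx cells, against 40 and 93 in wild type cells, so that a single scaled read separates the groups there (log2 fold change 0.81, SE 0.38, adjusted p = 0.220). Its log2 fold change was 0.21 with wild type replicate 1 left out and was 1.41 with the other wild type library left out. The most different region of the locus, 38.2 kb downstream of the start and inside the neighbouring gene Fsip1 by RefSeq (chr2:118149962-118150254), had 61 and 57 scaled reads in mdx cells, against 17 and 29 in wild type cells. Its log2 fold change was 1.37 (SE 0.40, adjusted p = 0.0743), and it passed when promoter medians were set equal (adjusted p = 0.0414). The distal region with the highest level, -82.8 kb from the start (chr2:118028935-118029311), had 50 and 62 scaled reads in mdx cells, against 22 and 44 in wild type cells (log2 fold change 0.82, SE 0.41, adjusted p = 0.258). Of the 7 distal regions at Thbs1, 5 were above 0 and 2 below it, under each scaling tried. As deposited, 61.7% of all tested distal regions were above 0.

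Sparc encodes a collagen-binding glycoprotein of remodelling matrix. All 6 of its regions had a log2 fold change above 0, from 0.15 to 1.68, with a median of 0.38. Of all tested distal regions 61.7% were above 0 as deposited, with a median of 0.19. Once distal medians were set equal, 4 of the 6 were above 0, with a median of 0.17 against -0.02 over all distal regions. As deposited, 0 of the 6 passed the test (1 at an unadjusted p under 0.05). The largest difference was at an unlinked region -15.1 kb from the start (chr11:55438095-55438418), with 50 and 27 scaled reads in mdx cells, against 6 and 19 in wild type cells, with a log2 fold change of 1.68 (SE 0.59, adjusted p = 0.119). The size rests on 1 library, as the log2 fold change was 0.92 when wild type replicate 1 was left out and 2.43 when the other wild type library was. Atox1 is the nearest RefSeq gene to it, 8.38 kb away. The strongest region, -5.17 kb from the start (chr11:55428137-55428565), had 182 and 217 scaled reads in mdx cells, against 161 and 154 in wild type cells (log2 fold change 0.33, SE 0.22, adjusted p = 0.396). The region that covers 196 bases of the Sparc window printed above had 93 and 59 scaled reads in mdx cells, against 65 and 67 in wild type cells, and the groups overlapped.

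Ltbp1, which ties latent TGF-beta to the matrix, had the most regions, among them 1 over each of its 2 annotated starts and 1 that rose in mdx. The upstream start, which the printed window with CCAAT matches covers, is the promoter of the deposited table (chr17:75004979-75006204). It had 217 and 156 scaled reads in mdx cells, against 231 and 266 in wild type cells, with a log2 fold change of -0.43 (SE 0.23, adjusted p = 0.284). Both mdx libraries were lower than either wild type library, as at 43.5% of all tested promoter regions. The downstream start, covered in full by an unlinked region 173 kb into the gene (chr17:75178094-75178860), had 253 and 215 scaled reads in mdx cells, against 115 and 231 in wild type cells (log2 fold change 0.51, SE 0.29, adjusted p = 0.320). The wild type libraries differ there by more than the group means do, and the difference between the 2 starts was not tested.

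The Ltbp1 region that passed lies 268 kb into the gene (chr17:75273381-75273585). It had 54 and 29 scaled reads in mdx cells, against 4 and 4 in wild type cells, with a log2 fold change of 3.02 (SE 0.59) and an adjusted p of 0.0194 by limma. These values stand for 39 and 25 reads in mdx, against 3 and about 8 reads in wild type. The 8 is an estimate, since at that library's factor of 0.492 more than 1 read number rounds to the same value. The size of the fold thus rests on few wild type reads. Reads were pooled over each group and divided by its reads in listed regions, mitochondrial ones included. The ratio was then 10.1, with an exact 95% interval of 5.3 to 21.3 that takes these reads as known and covers counting error only. The call kept its side of the threshold in 11 of 15 alternatives; with each of the 4 libraries left out in turn the log2 fold change was 2.58 to 3.46 and the adjusted p 0.288 to 0.670. Another region, 105 kb into the gene, had 164 and 134 scaled reads in mdx cells, against 44 and 102 in wild type cells. Of the 14 tested distal regions at Ltbp1, 12 were above 0 as deposited, with a median of 0.27. Of all tested distal regions 61.7% were above 0 as deposited, with a median of 0.19. Once distal medians were set equal, 8 of the 14 were above 0. The medians were then 0.06 for Ltbp1 and -0.02 for all distal regions. The medians of Ltbp1 and of all distal regions were 0.15 and 0.14 by cyclic loess, and 0.18 and 0.18 by voom.

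**Figure D3:**
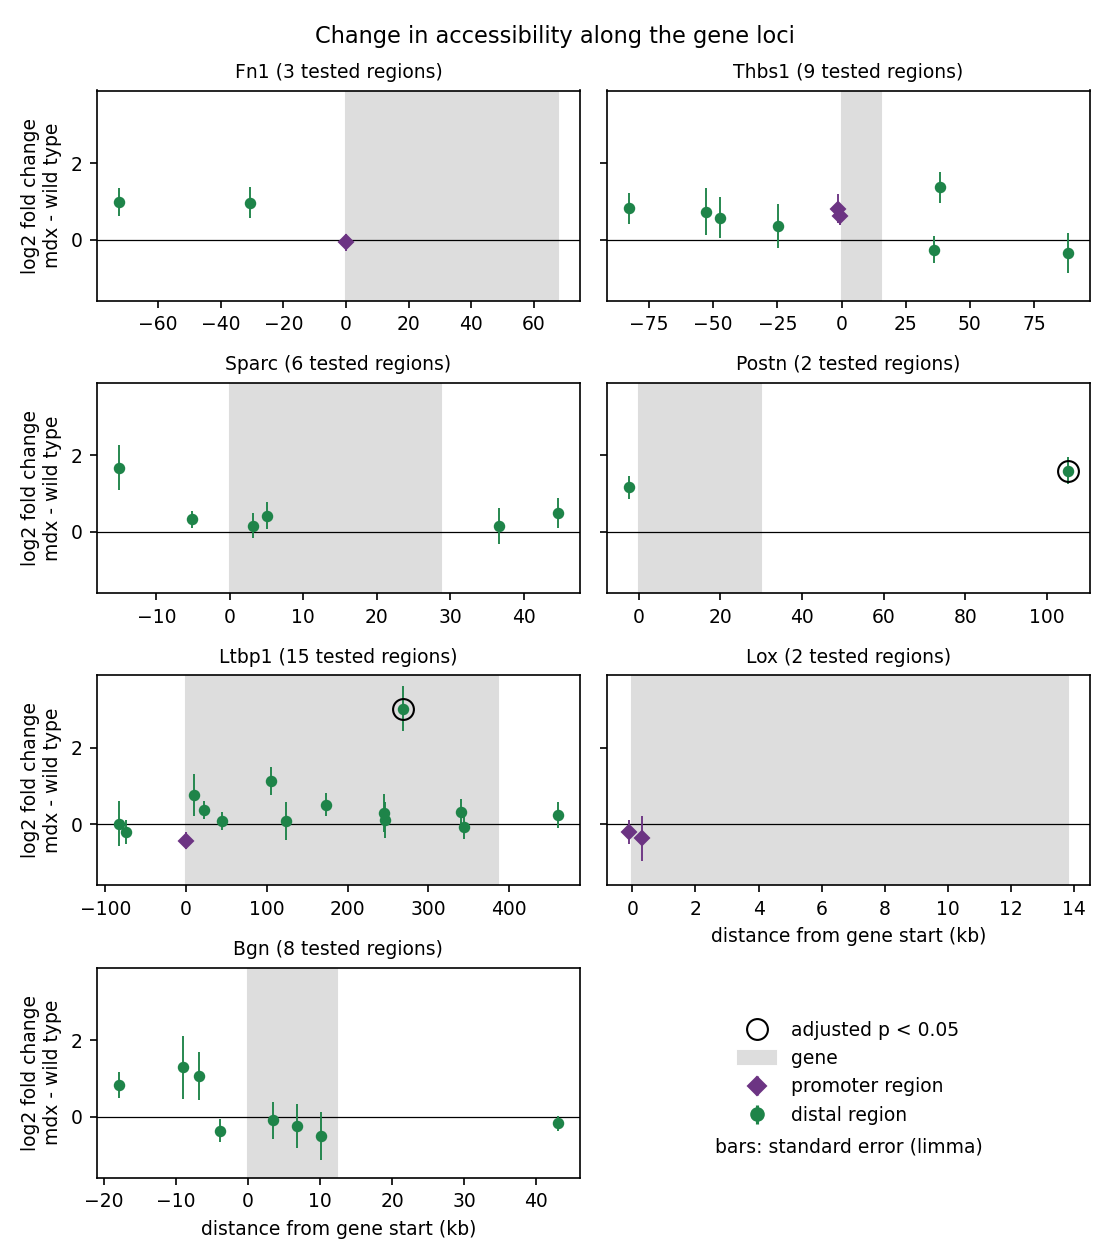
Log2 fold change (mdx minus wild type) with its standard error for each tested region of 7 genes, against distance in kb from the gene start in the direction of transcription. The Ltbp1 region 268 kb into the gene stands at 3.02, the Postn region at 1.60, and the standard errors of the Fn1 and Lox promoter regions span 0.

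Fbn1 encodes fibrillin 1, the main protein of microfibrils. With its RefSeq span in place of the missing one, 11 unlinked regions lay within 100 kb, chosen outside the counts above and after values had been seen: 8 were above 0 and 3 below, and 0 passed (4 higher and 1 lower at an unadjusted p under 0.05). Of all tested distal regions 61.7% were above 0, and 19.3% were higher at an unadjusted p under 0.05. The highest of the 11 in level, inside the gene at chr2:125368632-125369139, had 171 and 101 scaled reads in mdx cells, against 64 and 58 in wild type cells, with a log2 fold change of 1.10 (SE 0.31, adjusted p = 0.0648), and it passed under 7 of 16 alternatives, voom among them (adjusted p = 0.0376). A second intragenic region, chr2:125323407-125323680, went the other way, with 14 and 13 scaled reads in mdx cells, against 45 and 34 in wild type cells (log2 fold change -1.47, SE 0.46, adjusted p = 0.0850). Setting distal medians equal brought it past the threshold (adjusted p = 0.0271). The region over the RefSeq start of Fbn1 is linked to Gm9913 in the table (chr2:125505453-125506796) and had 376 and 347 scaled reads in mdx cells, against 491 and 483 in wild type cells (log2 fold change -0.43, SE 0.17, adjusted p = 0.156).

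Of the crosslinking enzymes, Lox had a pair of promoter regions, whose values overlapped between the groups. The one centred -0.098 kb from the start (chr18:52529800-52530129) had 57 and 72 scaled reads in mdx cells, against 78 and 70 in wild type cells (log2 fold change -0.20, SE 0.30, adjusted p = 0.733). The one 0.321 kb inside the gene (chr18:52529426-52529666) had 22 and 9 scaled reads in mdx cells, against 15 and 23 in wild type cells (log2 fold change -0.37, SE 0.58, adjusted p = 0.748), which became -0.97 with mdx replicate 1 left out and 0.23 with the other mdx library left out. Each sign turned in 1 alternative. Loxl2 had 0 unlinked regions near its RefSeq span. Within that span, 2 regions are linked in the table to a miRNA gene with no name, and they too were looked at after values had been seen. One (chr14:69692427-69692780) had 69 and 92 scaled reads in mdx cells, against 24 and 48 in wild type cells, with a log2 fold change of 1.20 (SE 0.39, adjusted p = 0.0940), and the other (chr14:69693424-69693634) had 48 and 38 in mdx cells, against 65 and 34 in wild type cells (log2 fold change -0.14, adjusted p = 0.873).

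Bgn encodes biglycan, a proteoglycan that binds collagen and TGF-beta. Of its 8 tested regions, 5 were below 0, with a median log2 fold change of -0.14 over the 8, although 5 were above 0 with promoter medians set equal, and 0 passed (1 higher at an unadjusted p under 0.05). Over all tested distal regions the median was 0.19 as deposited and 0.44 with promoter medians set equal. The strongest Bgn region, 43.0 kb from the start and inside Atp2b3 by RefSeq (chrX:73526294-73526879), had 316 and 292 scaled reads in mdx cells, against 313 and 375 in wild type cells (log2 fold change -0.17, SE 0.19, adjusted p = 0.622). The largest difference, -8.95 kb from the start (chrX:73474594-73474719), rested on 10 and 22 scaled reads in mdx cells, against 2 and 13 in wild type cells (log2 fold change 1.30, SE 0.82, adjusted p = 0.374), and the log2 fold change was 0.18 when wild type replicate 1 was left out and 2.41 when the other wild type library was. The linked regions had 59 and 67 (mdx) against 71 and 93 (wild type), and 19 and 31 (mdx) against 20 and 34 (wild type). Bgn lies on the X chromosome, and sources used here do not state the sex of the mice.

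Summed over all regions of a gene, promoter and distal together, mdx exceeded wild type most at Postn. The Postn sums were 213.0 ± 1.4 scaled reads in mdx cells and 83.0 ± 12.7 in wild type cells (SD, n = 2 each), a ratio of 2.57. Thbs1 came next (543.0 ± 49.5 in mdx, 360.5 ± 60.1 in wild type), then Fbn1 over its 11 regions outside the counts (643.5 ± 88.4 in mdx, 485.0 ± 21.2 in wild type, ratio 1.33) and Sparc with almost the same ratio of 1.32 (446.0 ± 29.7 in mdx, 337.0 ± 17.0 in wild type), and Fn1 (280.5 ± 21.9 in mdx, 232.0 ± 22.6 in wild type). Ltbp1 (1341 ± 176 in mdx, 1152 ± 238 in wild type), and Bgn (556.0 ± 5.7 in mdx, 566 ± 124 in wild type) overlapped in their spread, and Lox summed to 85.0 ± 1.4 in mdx and 101.5 ± 4.9 in wild type. These sums describe and were not tested; an exact permutation test of 2 against 2 libraries cannot give a p below 0.333. Per length, the 10 start regions ranged from 6.46 scaled reads per 100 bp at the second Lox region to 33.6 at Postn in mdx, and from 7.92 at that Lox region to 36.3 at Fbn1 in wild type. Postn, the highest in mdx, had 14.9 in wild type, where only that Lox region was lower, and Fbn1 had 26.9 in mdx, and neighbours in the order such as Fn1 (19.3 in mdx, 20.3 in wild type) and Lox (19.6 in mdx, 22.5 in wild type) lie within the spread of the libraries.

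**Figure D4:**
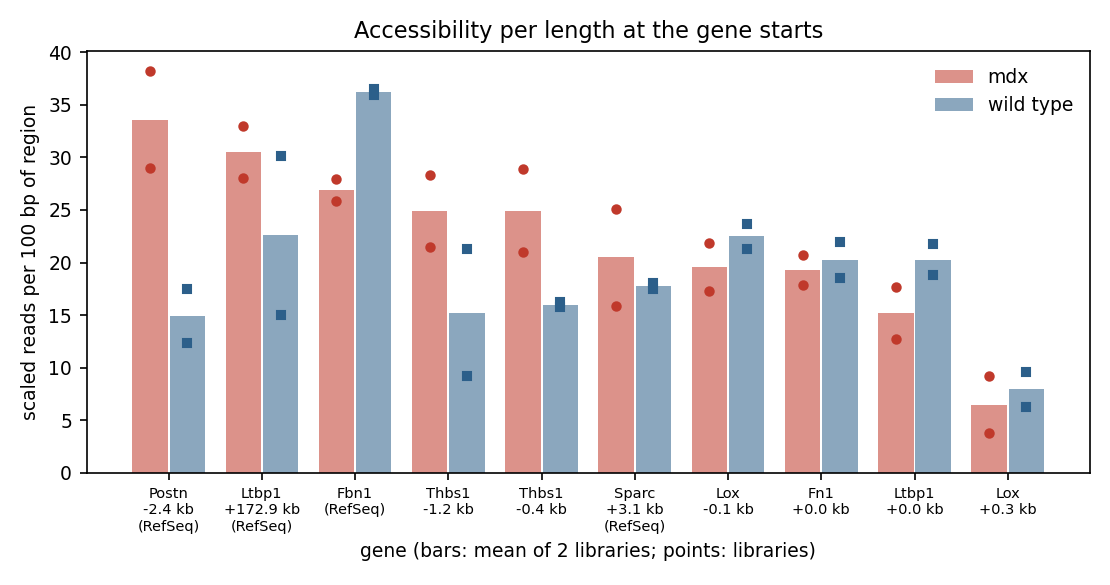
Mean scaled reads per 100 bp of region (bars) with the 2 libraries as points, at regions over or beside gene starts, mdx left of wild type; starts named RefSeq come from that annotation. Postn is highest in mdx (33.6 against 14.9 in wild type), and Fbn1 is highest in wild type (26.9 in mdx against 36.3 in wild type).

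The other genes of these families gave 1 call, too few to be told from the background share. Of 78 symbols for matricellular, microfibril, crosslinking, TGF-beta binding, proteoglycan and fibrosis genes, in which older and newer symbols of the Ccn genes stand apart, 50 had a linked region. Of their 64 tested regions, 1 rose and 0 fell (1.56% in either direction). Of all 11602 tested linked regions with a gene name, 2.31% were called in either direction, with 78 higher and 190 lower. At an unadjusted p under 0.05, 5 of the 64 were higher and 5 lower (7.81% each). The shares of those 11602 regions were 3.38% higher and 17.5% lower. The region that rose belongs to Ctgf, a matricellular target of TGF-beta and YAP, at chr10:24596731-24597240. It had 177 and 162 scaled reads in mdx cells, against 81 and 89 in wild type cells, with a log2 fold change of 0.99 (SE 0.25, adjusted p = 0.0440), and it lies outside 1 kb of the gene's start. The Ctgf promoter had 247 and 223 scaled reads in mdx cells, against 261 and 369 in wild type cells (log2 fold change -0.40, adjusted p = 0.290). That call ended when distal medians were set equal, with no filter, with a pseudocount of 0.1 and with each of the 4 libraries left out. By group, 13 of 23 matricellular symbols had regions (median log2 fold change -0.08), 8 of 14 microfibril and elastic fibre symbols (-0.34), 11 of 13 crosslinking and collagen processing symbols (-0.12), 6 of 8 latent TGF-beta binding and TGF-beta symbols (-0.07), 4 of 11 proteoglycan symbols (0.07) and 8 of 9 symbols of regulators and proteases (0.08). Over all linked regions with a name the median was -0.24, and the list's regions had a median of -0.08. Promoter regions made up 48 of the list's 64 tested regions and 10139 of the 11602. By class, the list's medians were -0.17 (promoter) and 0.17 (distal), against -0.26 and -0.01 over all linked regions with a name.

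At the 100 kb limit, the outermost regions inside were a Bgn region 97.5 kb from the gene with 4 and 6 scaled reads in mdx cells, against 5 and 9 in wild type cells, and an Ltbp1 region 82.8 kb from its gene with 10 and 17 in mdx cells, against 12 and 14 in wild type cells. Just outside was a Postn region 100.5 kb from the gene, with 93 and 85 scaled reads in mdx cells, against 45 and 20 in wild type cells. The 3 regions that failed the filter, at Bgn, Lox and Ltbp1, had 3 to 7 scaled reads in mdx libraries and 4 to 12 in wild type libraries. Over the 4 libraries, the promoter most like that of Fn1 in log2(value + 1) was that of Snapc2 (Euclidean distance 0.121 among 10138 promoters), for Ltbp1 it was Gdf6 (0.149), for the stronger Thbs1 region Agpat4 (0.167) and the weaker one Zfp426 (0.230), and for the Lox regions Erich2 (0.0573) and Acss3 (0.232).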

How the data were processed

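ATAC-seq was run on 10000 to 20000 flow-sorted cells per library, and per the labels' protocols the Tn5 reaction ran for 30 min at 37 °C. The submitters' processing notes name, with no role or order, the build mm10, STAR 2.5.3a, MACS2 2.1.0, Picard 2.9.0, Trimmomatic 0.33, DESeq and DESeq2. As unit, the deposited table was given score: judged from its values alone, its whole numbers are reads that the authors scaled by a library factor and then rounded, since they skip values at the steps such a factor leaves. The factors recovered from skipped values were 1.38, 1.16 and 1.22 for mdx replicates 1 and 2 and wild type replicate 1, and 0.492 for wild type replicate 2, from values that hold an extra read. Sources used here do not say whether coordinates count from 0 or 1.

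Here, limma 3.58.1 with an intensity trend (R 4.3.3) was fitted on log2(value + 1) with group as the only term, two-sided, to the 33161 regions that reached 10 scaled reads in 2 or more libraries, with Benjamini-Hochberg adjustment over all of them and a threshold of 0.05. Fold changes are on the log2(value + 1) scale, which understates changes at low values. This limma fit gave each library the same weight, whatever its number of reads in listed regions. The script was tested on simulated data. Full values are given for every region within 1 kb of its gene's start, every region past the threshold, and each gene's distal regions with the largest fold change and the highest level; the others named are said to be chosen otherwise or are given as levels only. Alternatives changed the scaling, filter, pseudocount, model, windows and libraries. The genes, the lists and the regions were chosen with earlier results of these data known. Replicate numbers were not taken to pair libraries.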

Additional observations from a re-analysis of the deposited data

How the results depend on the processing

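For the 2 named regions that were called, 22 of 31 alternatives kept the call and 9 ended it. For the 17 named regions that were not called, 195 alternatives kept all libraries: 24 brought the region past the threshold and 3 turned its sign. A further 68 left out 1 library, of which 3 turned a sign and 0 could make a call, since no region of the table passed in those fits. With any 1 library left out, limma called 0 regions of the whole table, the set and the other list in each direction, with 2305 to 5569 at an unadjusted p under 0.05 (7626 with all 4); such a fit leaves a group with 1 library that is assumed to vary like the other group. The promoter median was then -0.13 to 0.13 and the distal median 0.20 to 0.53. The Fn1 promoter then ranged from -0.19 to 0.052, turning sign without mdx replicate 2 (0.037) and in the fit that left out wild type replicate 1 (0.052), and the Lox region 0.321 kb inside the gene from -0.97 to 0.23, the positive value without mdx replicate 2. Of all regions, 1095 were higher and 292 lower (78.9% higher). With promoter medians set equal there were 2379 and 141 (94.4%), 5 higher in the set and 2 higher in the other list; the set's medians were 0.11 (promoter) and 0.60 (distal), and the Fn1 promoter (0.17), the Lox region at -0.098 kb (0.040) and the Bgn region at 43.0 kb (0.070) turned sign. With distal medians set equal 1603 were lower (46.3% higher), 0 rose and 2 fell in the other list, and the set's medians were -0.35 and 0.14. Cyclic loess gave 1704 higher and 541 lower, and 2 higher in the other list. With no filter there were 404 and 54 (88.2% higher), 1 in the set and 0 in the other list. Only regions with a mean of at least 50 gave 725 lower (62.6% higher), a pseudocount of 0.1 190 lower and 0 in the other list, a pseudocount of 5 485 lower, and voom 444 lower. An absolute log2 fold change over 1 left 169 lower and 0 in the other list, and an adjusted p under 0.01 left 136 higher, 6 lower, 0 in the set and 0 in the other list. With unlinked regions limited to 50 kb, 1 was called in the set. The cause of these shifts was not tested.

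The titles do not say that same-numbered libraries are paired, so the numbers were not taken to pair them. Over the tested regions, deviations from the group means correlated at -0.11 between same-numbered libraries. With 2 libraries a group the deviations mirror each other, so this is a single comparison and cannot decide the pairing. The replicate block gave 2108 higher and 653 lower, 6 higher in the set and 1 lower in the other list. The crossed pairing, added after seeing the data, gave 3394 higher and 2067 lower, 8 higher in the set, and 2 higher and 3 lower in the other list. Both fits, and the one with promoter medians set equal, covered the same 33161 tested regions, 45 of them in the set. Whether the set moved beyond the whole table in these fits was not tested.

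With 2 libraries a group and 3208479 to 8165826 reads, regions of few reads carry wide errors, and a region that misses the threshold is not shown to be equal.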
